A study of Mus musculus with 9 samples.

Results

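The genes described here are 8 components of the endothelin and angiotensin systems, measured in left ventricular RNA from mice under 2 diets and 2 viral vectors. They are the endothelin precursors Edn1 and Edn3, the endothelin-converting enzyme Ece1, the endothelin receptors Ednra and Ednrb, the angiotensin precursor Agt, the angiotensin-converting enzyme Ace and the angiotensin II receptor Agtr1a. The set was chosen by symbol with the counts of these 9 libraries already known, so its fold changes are given as a description without p-values. All 8 were found among 22036 annotated genes, and all 8 passed the filter on low counts that left 14160 genes for testing. The mice were labelled WT and fell into 3 groups of 3 biological replicates. HFD AAV-BCKDK mice were fed HFD (taken to mean a high-fat diet) and given an adeno-associated virus (AAV) vector named for Bckdk, the mitochondrial kinase that inhibits the breakdown of branched-chain amino acids. HFD AAV-CON mice had the same diet with the control vector, and ND AAV-CON mice had the control vector with ND (taken to mean a normal diet). All groups therefore carried a vector. In the 3 comparisons made here, the diet comparison is HFD AAV-CON over ND AAV-CON, the vector comparison is HFD AAV-BCKDK over HFD AAV-CON, and the combined comparison is HFD AAV-BCKDK over ND AAV-CON. The age of the mice, the composition and length of the diets, and the dose and promoter of the vectors are not stated in the labels.

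Endothelins are short vasoactive peptides cut from larger precursors, and the final cut is made by endothelin-converting enzymes. Endothelin-1, mostly of endothelial origin in blood vessels, constricts vessels through the Ednra receptor on smooth muscle, whereas Ednrb on endothelium is linked to vessel relaxation and to clearance of the peptide. Endothelin-3 binds Ednrb more tightly than Ednra and is known above all for its role in the neural crest. In the angiotensin system, renin cuts Agt to angiotensin I, Ace cuts that to angiotensin II, and angiotensin II acts on its type 1 receptor, which mice make from a pair of genes, Agtr1a and Agtr1b. Both systems raise blood pressure and drive growth and fibrosis of the heart.

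The stretches that encode the peptide hormones are shown because the main contrast below is between 2 ligand genes whose mature peptides are close relatives. They were read 5′ to 3′ along GENCODE M21 transcripts from the mouse build GRCm38 (mm10), each lies within exon 2 of its gene, and in the endothelin pair capitals mark the bases that differ between the genes.
Edn1 (chr13:42303649-42303711, plus strand): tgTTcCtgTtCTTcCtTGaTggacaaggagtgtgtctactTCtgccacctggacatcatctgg
Edn3 (chr2:174761749-174761811, plus strand): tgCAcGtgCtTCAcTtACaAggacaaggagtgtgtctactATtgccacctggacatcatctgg
Agt (chr8:124564450-124564479, minus strand): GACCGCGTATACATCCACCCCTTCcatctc
The endothelin stretches differed at 13 of 63 bases and in the residue encoded by 6 of 21 codons. The Agt stretch encodes angiotensin I, and its capitals mark the 8 codons that angiotensin II keeps after Ace has cut it.

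Annotated genes received between 32803233 and 45483044 counts per library. The chi-square per degree of freedom between replicates ran from 14.9 to 18.2 for pairs of HFD AAV-BCKDK libraries. Pairs of ND AAV-CON libraries gave 21.5 to 23.3. By this measure HFD AAV-CON replicates were far less alike, at 261 (1 and 2), 63.6 (1 and 3) and 73.9 (2 and 3). The diet and vector comparisons both rest on that group, and the fit took all 9 libraries together. HFD AAV-CON replicate 3 stood apart in 2 ways: its level lay between those of the other 2 HFD AAV-CON libraries for 64.1% of genes, against 14.8% to 37.1% for each other library within its own group, and 1.02% of its counts were in unnamed loci, against 4.75% to 6.01% elsewhere. Whether it is an independent library could not be settled. If it is not, the n, SDs and p-values that rest on HFD AAV-CON overstate the replication. Member and list values without it stand beside the main ones below. Bckdk itself stood at 111, 126 and 120 CPM (counts scaled to the size of the library) in HFD AAV-BCKDK and 37.1, 65.0 and 49.5 CPM in HFD AAV-CON, against 78.6, 70.3 and 70.6 CPM in ND AAV-CON. The 10 cardiomyocyte markers were detected in each group, and their summed level was 40500 to 43400 CPM in HFD AAV-BCKDK and 20800 to 36100 CPM in HFD AAV-CON, against 45300 to 47000 CPM in ND AAV-CON. In bulk tissue, fewer cells of a type and less RNA per cell cannot be told apart. Mitochondrially encoded transcripts took 45.0% to 47.6%, 26.1% to 39.9% and 42.1% to 45.7% of counts in these groups. CPM were scaled with TMM factors (trimmed mean of M values), which set the median change of all genes near 0. Scaling by total counts moved that median to 0.40 on the log2 scale for the diet comparison, to -0.47 for the vector comparison and to -0.08 for the combined comparison. All fold changes below are relative to the TMM scale unless total counts are named.

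On the TMM scale with all libraries Edn3 had the largest fold change of the 8 genes in each comparison, and its order was HFD AAV-BCKDK above HFD AAV-CON above ND AAV-CON in all pairs of libraries. Edn3 (ENSMUSG00000027524; chr2:174760619-174784042, plus strand) had 309, 502 and 492 counts, or 10.5, 17.7 and 11.7 CPM, in HFD AAV-BCKDK replicates 1, 2 and 3. It had 241, 236 and 182 counts, or 3.87, 6.35 and 4.34 CPM, in HFD AAV-CON, and 68, 78 and 64 counts, or 1.86, 2.11 and 1.62 CPM, in ND AAV-CON. No library of a group overlapped another group, and replicate 2 was the highest of each group. The group means were 13.3 ± 3.87 CPM in HFD AAV-BCKDK and 4.85 ± 1.32 CPM in HFD AAV-CON, against 1.86 ± 0.245 CPM in ND AAV-CON (SD, n = 3 each). On the log2 scale it differed by 1.38 (SE 0.26) for the diet comparison, 1.46 (SE 0.24) for the vector comparison and 2.84 (SE 0.26) for the combined comparison. Total-count scaling gave 1.74 for the first and 1.03 for the second of these, and leaving out HFD AAV-CON replicate 3 gave 1.45, 1.41 and 2.86. With total-count scaling the vector comparison was larger in size for Ace (-1.23), and without HFD AAV-CON replicate 2 the diet comparison was larger for Agtr1a (-1.45) than for Edn3 (1.13). The comparisons of the 3 groups share libraries, so these values are not independent of each other.

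Edn1, the precursor of endothelin-1, had nearly the same level in all groups. Edn1 (ENSMUSG00000021367; chr13:42301476-42307990, plus strand) stood at 6.66, 5.73 and 4.94 CPM in HFD AAV-BCKDK and 5.26, 5.79 and 6.37 CPM in HFD AAV-CON, against 5.60, 5.59 and 6.29 CPM in ND AAV-CON. The groups overlapped in each comparison. Its log2 fold change was -0.01 (SE 0.15) for the diet comparison, -0.01 (SE 0.15) for the vector comparison and -0.02 (SE 0.15) for the combined comparison. Total-count scaling gave 0.39 and -0.46 for the first and second comparison, close to the shift of all genes, and without HFD AAV-CON replicate 3 these were -0.08 and 0.08. An annotated gene on the other strand, Gm47118, shares exonic bases with Edn1, and since use of strand is not stated, its reads cannot be told apart from those of Edn1.

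The ratio of the ligands inside each library does not depend on how libraries are scaled. Per kilobase of exon (counts divided by the gene's exon length), Edn3 stood at 0.824, 1.61 and 1.23 times Edn1 in HFD AAV-BCKDK, at 0.382, 0.571 and 0.354 times in HFD AAV-CON, and at 0.173, 0.196 and 0.134 times in ND AAV-CON. The 3 groups did not overlap. In HFD AAV-BCKDK replicates 2 and 3 the Edn3 level per kilobase was above that of Edn1, and in all HFD AAV-CON and ND AAV-CON libraries it was below. Which gene stands above depends on the exon lengths used. In raw counts Edn3 was above Edn1 in each HFD AAV-BCKDK library and in HFD AAV-CON replicate 2 (236 against 215).

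**Figure D1:**
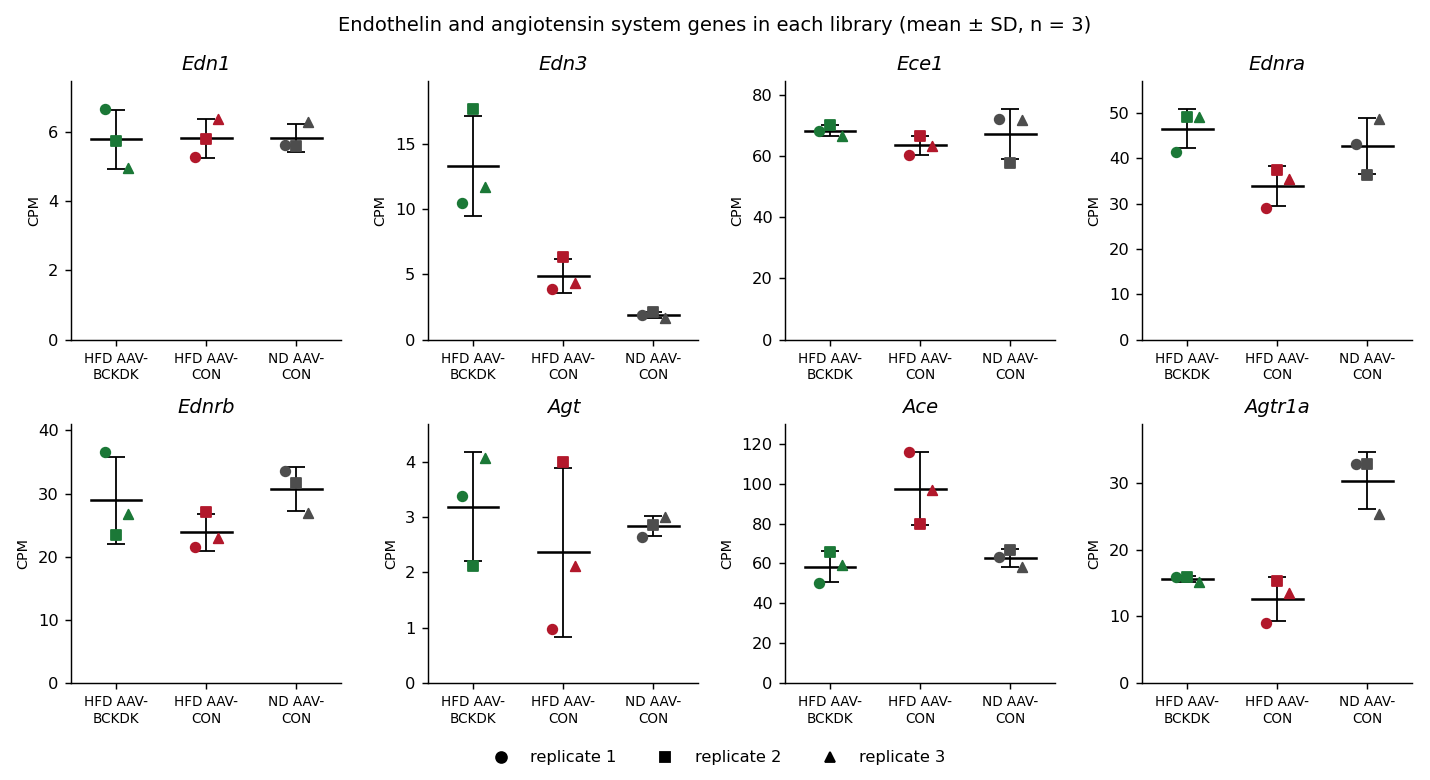
CPM (TMM-scaled) of each of the 8 genes in each library, with 1 panel per gene, symbols for replicate numbers and bars for the mean ± SD (n = 3). Edn3 runs from 10.5 to 17.7 CPM in HFD AAV-BCKDK and from 1.62 to 2.11 CPM in ND AAV-CON, Ace is highest in HFD AAV-CON, and Agtr1a is highest in ND AAV-CON.

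Ece1, which makes the final cut of the endothelin precursors, varied little. Ece1 (ENSMUSG00000057530; chr4:137862237-137965229, plus strand) stood at 68.2, 70.1 and 66.6 CPM in HFD AAV-BCKDK and 60.3, 66.7 and 63.4 CPM in HFD AAV-CON, against 72.2, 57.6 and 71.7 CPM in ND AAV-CON. ND AAV-CON replicate 2 was the lowest of the 9 libraries. The fitted log2 change was -0.08 (SE 0.10) for the diet comparison, 0.11 (SE 0.10) for the vector comparison and 0.02 (SE 0.10) for the combined comparison. The first of these turned to 0.31 and the second to -0.34 with total-count scaling, and they were -0.08 and 0.13 without HFD AAV-CON replicate 3.

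Both endothelin receptors had their lowest group mean in HFD AAV-CON. Ednra (ENSMUSG00000031616; chr8:77663031-77724464, minus strand) stood at 41.5, 49.1 and 49.1 CPM in HFD AAV-BCKDK and 29.0, 37.5 and 35.4 CPM in HFD AAV-CON, against 43.1, 36.4 and 48.7 CPM in ND AAV-CON. Each HFD AAV-BCKDK library was above each HFD AAV-CON library, while HFD AAV-CON and ND AAV-CON overlapped through ND AAV-CON replicate 2. The log2 fold change was -0.33 (SE 0.13) for the diet comparison, 0.46 (SE 0.13) for the vector comparison and 0.12 (SE 0.13) for the combined comparison. With total-count scaling the first was 0.04 and the second 0.02, and without HFD AAV-CON replicate 3 they were -0.36 and 0.51. Reads of 4933431K23Rik, annotated across part of Ednra on the other strand, cannot be told apart from those of Ednra.

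Ednrb (ENSMUSG00000022122; chr14:103814625-103844402, minus strand) stood at 36.6, 23.4 and 26.7 CPM in HFD AAV-BCKDK and 21.5, 27.1 and 23.0 CPM in HFD AAV-CON, against 33.6, 31.7 and 26.9 CPM in ND AAV-CON. HFD AAV-BCKDK replicate 1 was well above the other 2 libraries of its group, and all pairs of groups overlapped. Its log2 fold change was -0.37 (SE 0.17) for the diet comparison, 0.28 (SE 0.17) for the vector comparison and -0.09 (SE 0.17) for the combined comparison. Without HFD AAV-BCKDK replicate 1 the second value was 0.07, and with total-count scaling the first was 0.02 and the second -0.16. Without HFD AAV-CON replicate 3 they were -0.34 and 0.27. The ratio of Ednra to Ednrb per kilobase was 1.32 ± 0.386 in HFD AAV-BCKDK and 1.11 ± 0.0794 in HFD AAV-CON, against 1.10 ± 0.272 in ND AAV-CON (SD, n = 3 each), and these ranges overlapped.

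The levels of markers of the vascular cells known to carry these receptors stand beside these values. The summed level of 10 pericyte and smooth muscle markers was 1370 to 1410 CPM in HFD AAV-BCKDK and 876 to 1200 CPM in HFD AAV-CON, against 1460 to 1540 CPM in ND AAV-CON. That of 10 endothelial markers was 965 to 1090 CPM in HFD AAV-BCKDK and 629 to 859 CPM in HFD AAV-CON, against 938 to 1050 CPM in ND AAV-CON. Of the pericyte and smooth muscle markers, 4 of 10 fell in the diet comparison (median -0.09) and 3 of 10 rose in the vector comparison (median 0.03), where 43.3% and 38.2% of all genes were called, so the sums moved more than the median marker. Rgs5 alone averaged 864 CPM in HFD AAV-BCKDK and 601 CPM in HFD AAV-CON, against 919 CPM in ND AAV-CON. It made up most of the pericyte and smooth muscle sum. Of the endothelial markers, 7 of 10 fell in the diet comparison (median -0.43) and 8 of 10 rose in the vector comparison (median 0.54). None of these markers was at 0 in a whole group. The part of these cell types in the receptor values was not tested. For Edn3, 6 Schwann cell and neuronal markers summed to 6.38 to 8.81 CPM in HFD AAV-BCKDK and 2.82 to 5.65 CPM in HFD AAV-CON, against 7.30 to 7.87 CPM in ND AAV-CON. The part of these cells and of endothelial cells in the Edn3 values was not tested.

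Agt, the precursor of angiotensin I, was low and variable. Agt (ENSMUSG00000031980; chr8:124556534-124569706, minus strand) had 99, 60 and 172 counts in HFD AAV-BCKDK and 61, 149 and 89 counts in HFD AAV-CON, against 97, 106 and 119 counts in ND AAV-CON. As CPM these were 3.38, 2.12 and 4.08 in HFD AAV-BCKDK and 0.978, 4.01 and 2.12 in HFD AAV-CON, against 2.65, 2.86 and 3.01 in ND AAV-CON. The spread was wider under the diet labelled HFD, with a coefficient of variation of 31.1% in HFD AAV-BCKDK and 64.6% in HFD AAV-CON, against 6.26% in ND AAV-CON. On the log2 scale it differed by -0.28 (SE 0.44) for the diet comparison, 0.45 (SE 0.44) for the vector comparison and 0.18 (SE 0.44) for the combined comparison, and the groups overlapped in each. The first value was 0.10 without HFD AAV-CON replicate 1 and -0.89 without HFD AAV-CON replicate 2, and without replicate 3 of that group the first and second were -0.21 and 0.41. The liver markers Alb and Apoa1 were at 0 in both HFD groups, and the 5 liver markers summed to at most 0.594 CPM in any library.

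Ace was higher in HFD AAV-CON than in either other group. Ace (ENSMUSG00000020681; chr11:105967945-105989964, plus strand) stood at 50, 65.5 and 59.4 CPM in HFD AAV-BCKDK and 116, 79.7 and 97.1 CPM in HFD AAV-CON, against 63.2, 66.7 and 58.0 CPM in ND AAV-CON. No HFD AAV-CON library overlapped the other 6, and HFD AAV-BCKDK and ND AAV-CON overlapped. The fitted log2 change was 0.64 (SE 0.14) for the diet comparison, -0.74 (SE 0.14) for the vector comparison and -0.10 (SE 0.14) for the combined comparison. Total-count scaling gave 1.07 and -1.23 for the first and second of these, and leaving out HFD AAV-CON replicate 3 gave 0.64 and -0.73. Gm11651 lies on the other strand across part of Ace, and reads of the pair cannot be told apart.

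Endothelial cells and activated macrophages are known sources of Ace. Macrophage and monocyte markers summed to 497 to 664 CPM in HFD AAV-BCKDK and 1780 to 2930 CPM in HFD AAV-CON, against 658 to 903 CPM in ND AAV-CON. All 10 rose in the diet comparison and all 10 fell in the vector comparison. Fibroblast markers summed to 2310 to 2480 CPM, 3070 to 4570 CPM and 2410 to 2530 CPM in HFD AAV-BCKDK, HFD AAV-CON and ND AAV-CON, and endothelial markers went the other way, as given above. The part of these cell types in the Ace values was not tested. Within HFD AAV-CON, replicate 1 was the highest and replicate 2 the lowest for Ace (116 and 79.7 CPM) and for the macrophage sum (2930 and 1780 CPM), and the share of mitochondrial transcripts ran the other way (26.1% and 39.9%). Since replicate 3 lay between the other libraries of its group for 64.1% of genes, most genes have replicates 1 and 2 at the ends. Nothing is read from this shared order.

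Agtr1a was lower in both HFD groups than in ND AAV-CON. Agtr1a (ENSMUSG00000049115; chr13:30336441-30382867, plus strand) stood at 15.9, 15.9 and 15.1 CPM in HFD AAV-BCKDK and 8.93, 15.3 and 13.5 CPM in HFD AAV-CON, against 32.8, 32.9 and 25.4 CPM in ND AAV-CON. No library of either HFD group reached the lowest ND AAV-CON library, while the HFD groups overlapped each other through HFD AAV-CON replicate 2. The means were 15.6 ± 0.431 CPM in HFD AAV-BCKDK and 12.6 ± 3.27 CPM in HFD AAV-CON, against 30.4 ± 4.30 CPM in ND AAV-CON (SD, n = 3 each). The log2 fold change was -1.28 (SE 0.18) for the diet comparison, 0.32 (SE 0.18) for the vector comparison and -0.96 (SE 0.18) for the combined comparison. With total-count scaling the first was -0.91 and the second -0.10, and without HFD AAV-CON replicate 3 they were -1.34 and 0.40. Agtr1b, its close paralog, had 0 counts in all 9 libraries. How the counting treated reads that match both genes is not stated.

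In the combined comparison, Ace and Agtr1a stood differently. Ace differed by -0.10 (SE 0.14) with overlapping groups, and Agtr1a by -0.96 (SE 0.18) with groups that did not overlap. The pericyte and smooth muscle sum, at 1370 to 1410 CPM in HFD AAV-BCKDK against 1460 to 1540 CPM in ND AAV-CON, and the fibroblast sum, at 2310 to 2480 CPM against 2410 to 2530 CPM, stand beside these values, and their part was not tested. Most of the pericyte and smooth muscle sum was Rgs5, as given above.

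**Figure D2:**
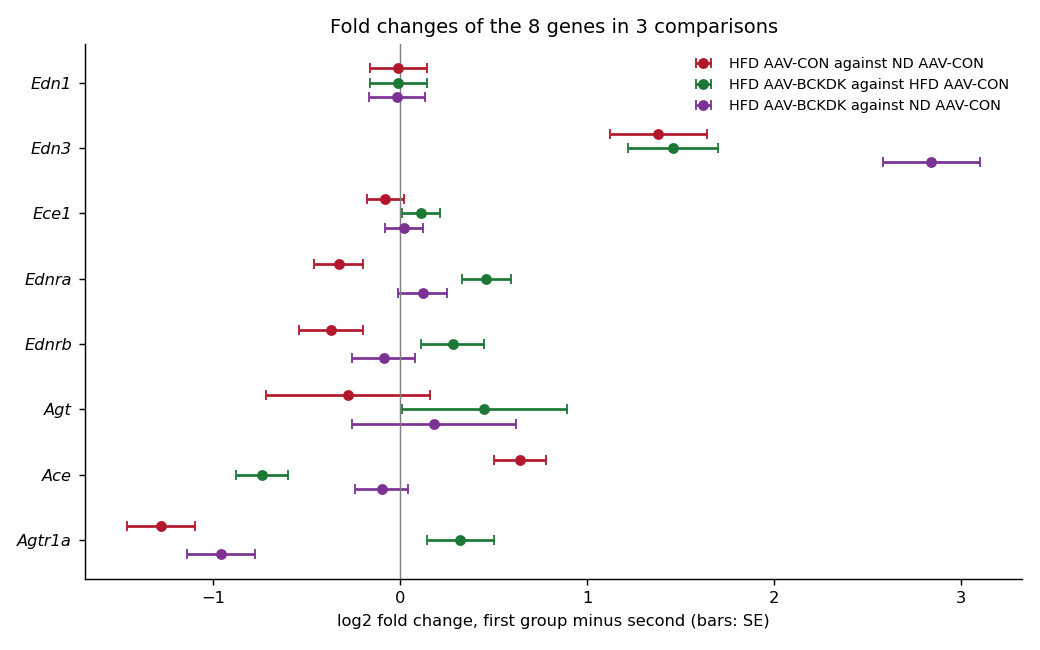
Log2 fold change of each gene in the 3 comparisons, first group minus second, with bars for the SE of the fit over 9 libraries. Edn3 is above 0 in all 3 comparisons (1.38, 1.46 and 2.84), Ace is above 0 in the diet comparison (0.64) and below 0 in the vector comparison (-0.74), and Edn1 lies within its SE of 0.

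At an adjusted p under 0.05 (edgeR quasi-likelihood test, Benjamini-Hochberg adjustment over 14160 genes), the diet comparison called 3 of the 8 genes, Edn3 and Ace as higher and Agtr1a as lower, where 43.3% of all genes were called. The vector comparison called 3 of 8, Edn3 and Ednra as higher and Ace as lower, where 38.2% of all genes were called. The combined comparison called 2 of 8, Edn3 as higher and Agtr1a as lower, where 2.45% of all genes were called. Groups did not overlap for the same genes, 3, 3 and 2 of 8, where 55.3%, 51.2% and 27.7% of all genes had groups that did not overlap in these comparisons. Since the genes were chosen with these contrasts known, nothing is read from the counts. The median log2 fold change of the 8 was -0.18, 0.30 and 0.00, beside 0.00, -0.01 and -0.03 for all genes tested. The call of Ednra was lost with total-count scaling, without HFD AAV-CON replicate 1 or 3 and without HFD AAV-BCKDK replicate 2 or 3. Over all libraries left out in turn its log2 fold change was 0.38 to 0.56. The call of Agtr1a in the combined comparison was lost without any single library of these 2 groups and without HFD AAV-CON replicate 3, and its value ran between -1.07 and -0.90 over all alternatives.

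Ratios between the enzymes and between receptors of the 2 systems were also taken inside each library. Per kilobase, Ace stood at 0.735, 0.937 and 0.893 times Ece1 in HFD AAV-BCKDK and 1.93, 1.20 and 1.53 times in HFD AAV-CON, against 0.878, 1.16 and 0.811 times in ND AAV-CON. HFD AAV-CON was above both other groups, by a narrow gap to ND AAV-CON replicate 2. Agtr1a stood at 0.751, 0.636 and 0.606 times Ednra in HFD AAV-BCKDK and 0.607, 0.800 and 0.750 times in HFD AAV-CON, against 1.5, 1.78 and 1.03 times in ND AAV-CON. In these libraries Agtr1a was below Ednra per kilobase in both HFD groups and above it in ND AAV-CON. This crossing depends on the exon lengths, since without them Agtr1a was also below Ednra in ND AAV-CON (means of 30.4 against 42.7 CPM).

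**Figure D3:**
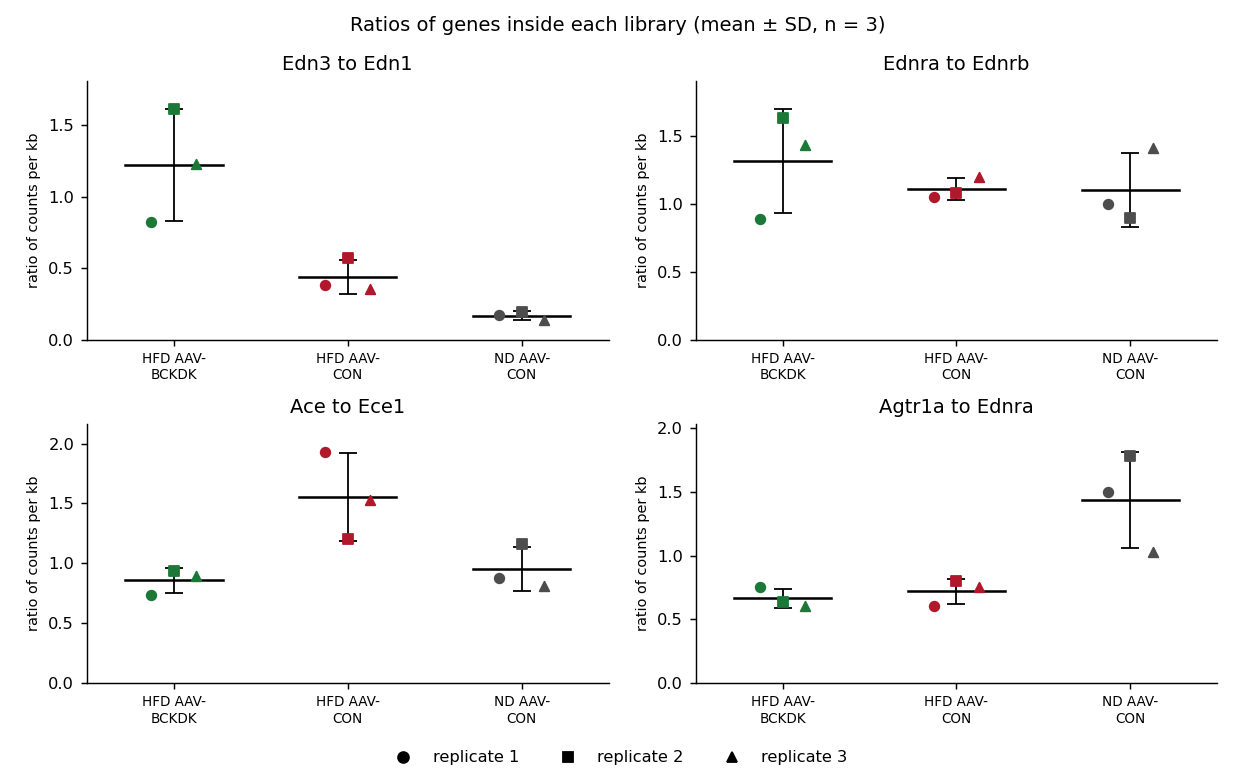
Ratios of counts per kilobase of exon between pairs of genes inside each library, with 1 panel per pair, symbols for replicate numbers and bars for the mean ± SD (n = 3). The ratio of Edn3 to Edn1 is 0.824 to 1.61 in HFD AAV-BCKDK and 0.134 to 0.196 in ND AAV-CON, and the ratio of Ednra to Ednrb overlaps between all groups.

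The order of levels within a group was read per kilobase. In HFD AAV-BCKDK the mean CPM per kilobase was 12.9 for Ece1, 11 for Ace, 8.50 for Ednra, 6.77 for Ednrb, 5.61 for Agtr1a, 3.24 for Edn3, 2.70 for Edn1 and 1.69 for Agt. There Ednrb overlapped with both neighbours, and Edn3 overlapped with Edn1. In HFD AAV-CON it was 18.5 for Ace, 12 for Ece1, 6.20 for Ednra, 5.59 for Ednrb, 4.51 for Agtr1a, 2.71 for Edn1, 1.25 for Agt and 1.18 for Edn3. The ranges of Ednra and Ednrb, of Ednrb and Agtr1a, and of Agt and Edn3 overlapped. In ND AAV-CON it was 12.7 for Ece1, 11.8 for Ace, 10.9 for Agtr1a, 7.81 for Ednra, 7.20 for Ednrb, 2.72 for Edn1, 1.5 for Agt and 0.452 for Edn3. Ece1, Ace and Agtr1a overlapped there, as did Ednra and Ednrb. Per kilobase, Edn3 thus had the lowest mean of the 8 in both AAV-CON groups, though in HFD AAV-CON its range overlapped that of Agt. Without division by length, Edn3 was above Agt in HFD AAV-CON (4.85 against 2.37 CPM) and below it in ND AAV-CON (1.86 against 2.84 CPM). Ranks between genes therefore depend on the exon length used, which joins all annotated transcripts of a gene. Which transcripts were expressed was not tested. In HFD AAV-BCKDK Edn3 ranked above Edn1 and Agt by mean.

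Of the other genes of these systems, several were at or near 0. Edn2, the third endothelin gene, had 0 counts in all 9 libraries, where 3 counts, the limit that a count of 0 allows, correspond to 0.0481 to 0.106 CPM. Ren1, which encodes renin, had 2 counts in all, both in ND AAV-CON, and Agtr2, the type 2 angiotensin II receptor, also had 2 counts in all, both in ND AAV-CON. The aldosterone synthase gene Cyp11b2 and the kidney markers Umod and Slc12a1 were at 0 in all libraries. Such limits cover counting error only. Ece2, a further endothelin-converting enzyme, had 19, 35 and 0 counts in HFD AAV-BCKDK and 260, 44 and 4 in HFD AAV-CON, against 70, 18 and 11 in ND AAV-CON, a spread within groups that left its changes far from the threshold (adjusted p = 0.52, 0.354 and 0.886 in the 3 comparisons by edgeR).

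Mas1, a receptor of the counter-regulatory branch of the angiotensin system, had 8, 11 and 27 counts in HFD AAV-BCKDK and 4, 11 and 5 in HFD AAV-CON, against 13, 20 and 10 in ND AAV-CON. Its log2 fold change was -1.31 (SE 0.64, adjusted p = 0.126) for the diet comparison and 1.52 (SE 0.64, adjusted p = 0.0892) for the vector comparison. Cma1, a mast cell chymase gene, had 13, 22 and 56 counts in HFD AAV-BCKDK and 28, 14 and 30 in HFD AAV-CON. In ND AAV-CON it had 33, 34 and 35 counts (adjusted p = 0.162, 0.209 and 0.960 in the 3 comparisons). None of these adjusted p-values passed 0.05, which does not show that the genes were unchanged.

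The remaining genes came from 7 lists of 112 genes in all, of which 95 were tested. The diet comparison called 51 of the 95, 37 as higher and 14 as lower, with a median log2 fold change of 0.28, where 43.3% of all genes were called. The vector comparison called 45, of which 11 as higher and 34 as lower, with a median of -0.15, where 38.2% of all genes were called. The combined comparison called 9, of which 6 as higher and 3 as lower, with a median of -0.01, where 2.45% of all genes were called. These shares of all genes are the background for each list below. The lists were chosen with earlier results of these data known, so their counts and adjusted p-values are a description. With total-count scaling the splits were 56 higher and 3 lower, 1 higher and 60 lower, and 1 higher and 1 lower, and without HFD AAV-CON replicate 3 they were 31 and 10, 4 and 26, and 2 and 1.

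Of 16 renin-angiotensin genes tested, 5 rose and 1 fell in the diet comparison (median -0.06), where 43.3% of all genes were called, and 6 fell in the vector comparison (median -0.06), where 38.2% were. Neither count of 6 of 16 exceeded the share over all genes. Without HFD AAV-CON replicate 3 the counts were 5 higher and 1 lower (median -0.09), then 5 lower (median -0.03). With total-count scaling they were 7 higher (median 0.34), then 11 lower (median -0.53). Anpep, the aminopeptidase that turns angiotensin III into angiotensin IV and is also a myeloid surface protein, stood at 9.90, 11.4 and 10.1 CPM in HFD AAV-BCKDK and 32.6, 28.8 and 28.9 CPM in HFD AAV-CON, against 9.76, 7.29 and 11.6 CPM in ND AAV-CON. It rose by 1.66 (SE 0.15, adjusted p = 0.000346) in the diet comparison and fell by 1.52 (SE 0.15, adjusted p = 0.00112) in the vector comparison. Atp6ap2, the prorenin receptor and a part of the vacuolar proton pump, rose by 0.92 (SE 0.15, adjusted p = 0.00191) in the diet comparison and fell by 1.06 (SE 0.15, adjusted p = 0.00177) in the vector comparison. In the diet comparison Arap1 rose by 0.94 (SE 0.15) and the aminopeptidase Rnpep rose by 0.44 (SE 0.07), and in the vector comparison Arap1 fell by 1.05 (SE 0.16). Prcp, a lysosomal carboxypeptidase that can cut angiotensin II, fell by 1.27 (SE 0.22, adjusted p = 0.00337) in the vector comparison. The macrophage sum given above moved with these genes, and its part was not tested.

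Among genes that make or clear endothelin, Ctsa, a lysosomal carboxypeptidase that inactivates endothelin-1, rose by 0.35 (SE 0.09, adjusted p = 0.0106) in the diet comparison and fell by 0.53 (SE 0.09, adjusted p = 0.00255) in the vector comparison. Furin, which makes the first cut of the endothelin precursor, rose by 0.30 (SE 0.10, adjusted p = 0.0336) in the diet comparison. These were the only calls among the 5 tested genes of the list in these comparisons, with medians of 0.30 and -0.11. Without HFD AAV-CON replicate 3 they were 1 higher, Ctsa (median 0.30), then 1 lower (median -0.15). With total-count scaling they were 3 higher (median 0.68), then 3 lower (median -0.57). DESeq2 and limma-voom each also called 1 gene as higher in the vector comparison, and limma-voom called 1 as lower in the diet comparison. The call of Furin was lost without ND AAV-CON replicate 1 or 2, HFD AAV-CON replicate 2 or 3, or HFD AAV-BCKDK replicate 2 or 3 (adjusted p = 0.0514 to 0.102), and in the fit of only the 2 groups (0.0704).

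The mineralocorticoid receptor gene Nr3c2, whose product binds aldosterone, was lower in both HFD groups than in ND AAV-CON, as Agtr1a was. It stood at 7.47, 8.02 and 5.63 CPM in HFD AAV-BCKDK and 4.68, 7.62 and 5.39 CPM in HFD AAV-CON, against 17.1, 13.1 and 12.8 CPM in ND AAV-CON. No library of either HFD group reached the lowest ND AAV-CON library. Nr3c2 fell by 1.29 (SE 0.21, adjusted p = 0.00188) in the diet comparison and by 1.03 (SE 0.21, adjusted p = 0.0421) in the combined comparison. The second of these calls was lost without any single library of its 2 groups and without HFD AAV-CON replicate 3 (adjusted p = 0.0839 to 0.142), and with unnamed loci kept (0.0602). Hsd11b1, which regenerates active glucocorticoid, fell by 0.65 (SE 0.18, adjusted p = 0.018) in the diet comparison, and this call was lost with total-count scaling (adjusted p = 0.136) and without ND AAV-CON replicate 1 (0.0623) or HFD AAV-CON replicate 3 (0.0606). In the kinin list 2 genes were tested, the bradykinin receptor Bdkrb2 at -0.68 (SE 0.42, adjusted p = 0.217) and the carboxypeptidase Cpm at -0.14 (SE 0.18, adjusted p = 0.564) in the diet comparison.

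Endothelin and angiotensin II receptors signal through Gq proteins, phospholipase C and protein kinase C, and are switched off by receptor kinases, arrestins and RGS proteins. Of 38 such genes, 16 rose and 5 fell in the diet comparison (median 0.27), where 43.3% of all genes were called. In the vector comparison 6 rose and 15 fell (median -0.23), where 38.2% of all genes were called. With total-count scaling the counts were 27 higher and 1 lower, then 29 that were all lower. Without HFD AAV-CON replicate 3 they were 12 higher and 3 lower, then 3 higher and 9 lower. The second count was 4 higher and 9 lower without HFD AAV-CON replicate 1, and 3 higher and 9 lower without HFD AAV-BCKDK replicate 1. The protein kinase C gene Prkcd rose by 1.54 (SE 0.21, adjusted p = 0.000946) in the diet comparison and fell by 1.78 (SE 0.21, adjusted p = 0.00126) in the vector comparison. In the diet comparison the arrestin gene Arrb2 rose by 1.71 (SE 0.29) and the G protein gene Gna13 rose by 0.86 (SE 0.16). In the vector comparison Arrb2 fell by 1.81 (SE 0.30) and Prkcb, an isoform of protein kinase C common in leukocytes, fell by 2.98 (SE 0.41, adjusted p = 0.00161). Ppp3cb, a calcineurin subunit, rose by 0.40 (SE 0.07, adjusted p = 0.0031) in the vector comparison, and total-count scaling turned it to -0.05. The macrophage and monocyte markers given above, 10 of 10 higher and then 10 of 10 lower, moved with these genes, and their part was not tested.

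In the combined comparison, 3 genes of this signalling list were called. Rgs2, which shuts off Gq signalling, stood at 18.1, 23.5 and 23.2 CPM in HFD AAV-BCKDK against 44.5, 38.4 and 36.7 CPM in ND AAV-CON, and fell by 0.88 (SE 0.14, adjusted p = 0.0166). Its HFD AAV-CON libraries were at 28.7, 22 and 23.2 CPM, below all ND AAV-CON libraries. The receptor kinase gene Grk5 rose by 0.54 (SE 0.10, adjusted p = 0.033), and by 0.59 (SE 0.10, adjusted p = 0.00232) in the diet comparison. Arhgef12, a guanine nucleotide exchange factor, rose by 0.36 (SE 0.08, adjusted p = 0.0486). In the combined comparison, the calls of Grk5 and Arhgef12 were lost without any single library of these groups and without HFD AAV-CON replicate 3 (adjusted p = 0.0637 to 0.122 and 0.0904 to 0.18). That of Rgs2 was lost without ND AAV-CON replicate 1 or 2 or any HFD AAV-BCKDK library (0.0504 to 0.0732). All 3 calls were also lost with total-count scaling (0.0669 for Rgs2, 0.25 for Grk5 and 0.315 for Arhgef12), and that of Arhgef12 without a filter on low counts (0.0639) and with unnamed loci kept (0.0529).

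Natriuretic peptides and nitric oxide oppose these hormones. Of 14 such genes tested, 2 rose and 5 fell in the diet comparison (median -0.25), where 43.3% of all genes were called. In the vector comparison 5 rose and 1 fell (median 0.31), where 38.2% of all genes were called. Total-count scaling gave 4 higher and 1 lower (median 0.12), then 1 higher and 2 lower (median -0.16), and leaving out HFD AAV-CON replicate 3 gave 2 higher and 4 lower, then 1 higher and 1 lower. The count of the vector comparison was 8 higher and 2 lower without HFD AAV-CON replicate 2, and 2 and 1, 0 and 1, and 2 and 1 without HFD AAV-BCKDK replicates 1, 2 and 3. Nppb, which encodes B-type natriuretic peptide, rose by 1.47 (SE 0.27, adjusted p = 0.00301) in the diet comparison, and Nppa, the atrial natriuretic peptide gene, fell by 3.12 (SE 0.63, adjusted p = 0.00635) in the vector comparison. Corin, the protease that activates these peptides, fell by 0.81 (SE 0.18, adjusted p = 0.00749) in the diet comparison and rose by 0.72 (SE 0.18, adjusted p = 0.0157) in the vector comparison. The second call of Corin was lost without HFD AAV-CON replicate 3 (0.0531) or HFD AAV-BCKDK replicate 2 (0.052).

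The guanylate cyclase subunit Gucy1b1 fell by 0.56 (SE 0.10, adjusted p = 0.00226) and the receptor Npr2 by 0.44 (SE 0.09, adjusted p = 0.00541) in the diet comparison, and with total-count scaling they were at -0.15 and -0.05 with no call (adjusted p = 0.476 and 0.674). In the vector comparison, Npr2 rose by 0.32 (SE 0.09, adjusted p = 0.0232), which total-count scaling turned to -0.12. That call was lost without HFD AAV-CON replicate 3 or HFD AAV-BCKDK replicate 2 or 3 (0.0557 to 0.0727), and in the fit of only the 2 groups (0.0567). The clearance receptor Npr3 rose by 0.91 (SE 0.25, adjusted p = 0.0199), and its call was lost without HFD AAV-CON replicate 1 or HFD AAV-BCKDK replicate 1 or 2 (0.0539 to 0.0623) and with total-count scaling (0.13).

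The listed genes known to be induced by angiotensin II or endothelin-1 were mostly high in HFD AAV-CON. This is a description only, since the list was chosen with earlier results of these data known. Of 16 tested, 12 rose and 1 fell in the diet comparison (median 1.63), where 43.3% of all genes were called. In the vector comparison 11 fell (median -1.16), where 38.2% of all genes were called. Without HFD AAV-CON replicate 3 the counts were 11 higher and 1 lower (median 1.63), then 10 lower (median -1.11). These genes also respond to many other signals. In the diet comparison the matrix protein gene Thbs1 rose by 3.79 (SE 0.21), the chemokine gene Ccl2 by 2.21 (SE 0.22) and Rcan1, a target of calcineurin, by 1.61 (SE 0.17). In the vector comparison Thbs1 fell by 2.74 (SE 0.20), the oxidase subunit gene Cybb fell by 2.95 (SE 0.34) and Postn, a matrix gene of activated fibroblasts, fell by 3.48 (SE 0.51). The cytokine gene Il6 had 0 counts in each HFD AAV-BCKDK library, 69, 31 and 43 in HFD AAV-CON, against 5, 5 and 5 in ND AAV-CON. Against the 3 counts over the group that a count of 0 allows, Il6 was at least 33.6-fold lower in HFD AAV-BCKDK than in HFD AAV-CON (adjusted p = 0.00125). The macrophage and fibroblast sums given above moved with this list, and their part was not tested.

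In the combined comparison, genes of that list were called in both directions. Rcan1 rose by 1.02 (SE 0.17, adjusted p = 0.0211) and Thbs1 by 1.05 (SE 0.20, adjusted p = 0.0303). Vegfa, an angiogenic factor named after its values were seen, rose by 0.70 (SE 0.15, adjusted p = 0.0474). Il6 was at least 4.4-fold lower (adjusted p = 0.0409). The calls of Rcan1, Thbs1 and Il6 were lost without any single library of these groups (adjusted p = 0.0523 to 0.0975, 0.0505 to 0.119 and 0.0619 to 0.117, with HFD AAV-CON replicate 3 also among the losses for Thbs1 and Il6 and replicate 1 for Il6). That of Vegfa was lost in the same way, HFD AAV-CON replicate 3 included (adjusted p = 0.0863 to 0.168), and with unnamed loci kept (0.0648). Total-count scaling also lost Rcan1 (0.105), Thbs1 (0.0951) and Il6 (0.0705), and limma-voom lost Il6 (0.0644).

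**Figure D4:**
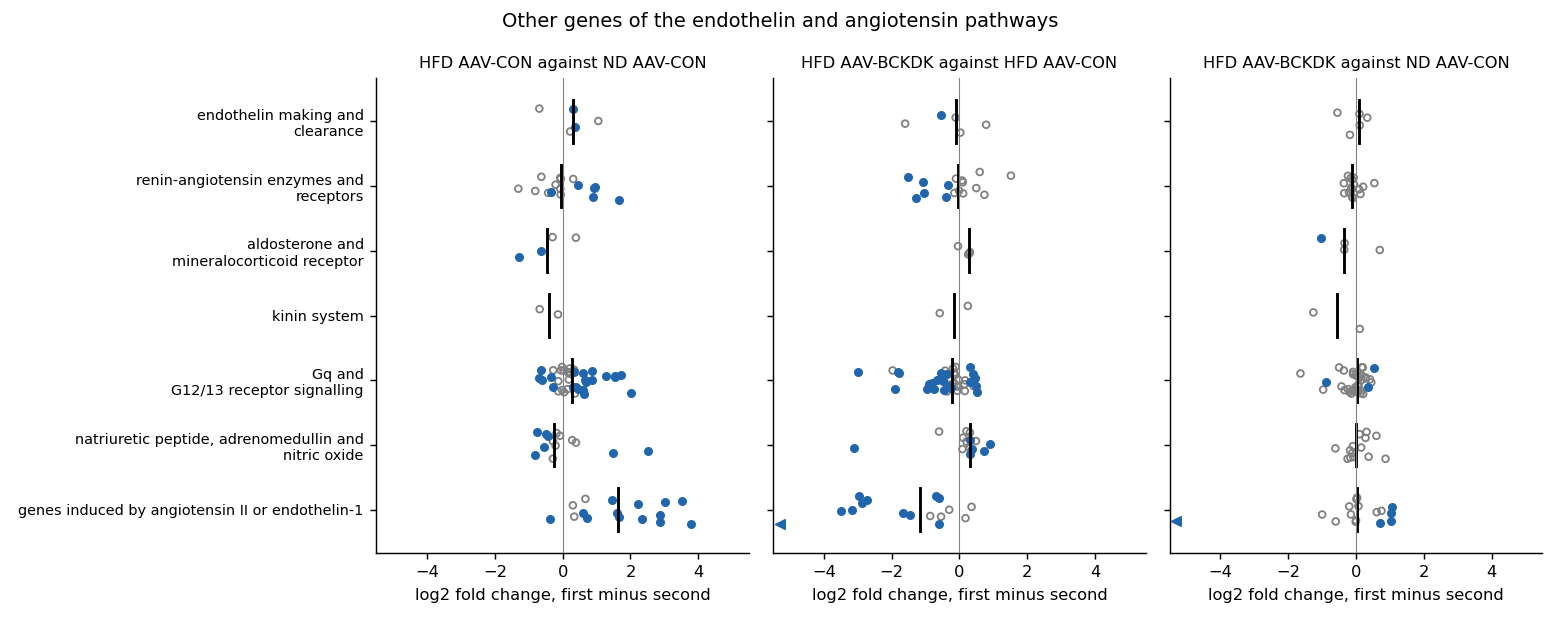
Log2 fold change, first group minus second, of the 95 tested genes of the 7 lists in the 3 comparisons, with filled points for genes with an adjusted p under 0.05, open points for the rest and a bar for the median of the list. The list of induced genes has a median of 1.63 in the diet comparison, and a triangle at the left edge stands for Il6, whose fitted value lies beyond the axis because no HFD AAV-BCKDK library held a count of it.

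The genes whose pattern over the 9 libraries was most like that of each member were found among 11202 genes whose average log2 CPM reached 1. The measure was the Pearson correlation of log2 CPM, which libraries shared by the genes, their depth and the group differences all shape, and it is given without a p. For Edn3 these were Rras2 (r = 0.995) and Alpk3 (r = 0.991). Rras2 averaged 71.5 CPM in HFD AAV-BCKDK and 51.1 CPM in HFD AAV-CON, against 40.1 CPM in ND AAV-CON, the same group order as Edn3 over a much smaller range. For Ace they were P4hb (r = 0.995) and Tnip1 (r = 0.986), with P4hb at 193, 248 and 198 CPM in HFD AAV-BCKDK, HFD AAV-CON and ND AAV-CON. For Agtr1a they were Shmt1 (r = 0.985) and Cmc1 (r = 0.984), with Shmt1 at 6.73, 5.36 and 11.9 CPM in these groups. Agt was most like Fam89a (r = 0.984) and Mrm3 (r = 0.978), Ednrb most like Itm2a (r = 0.959) and Rps6kb2 (r = 0.955), and Ednra most like Ccdc43 (r = 0.950) and Mpp6 (r = 0.947). Edn1 and Ece1, which varied least between groups, had their nearest genes at r = 0.937 (Snx15) and 0.861 (Rbbp4), and at 0.879 (Zscan21) and 0.874 (Yeats4).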

How the data were processed

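RNA of the left ventricle of 9 mice (Trizol) was sequenced from VAHTS mRNA-seq v2 libraries, as the labels' protocols say. The submitters' processing notes name HISAT2 2.0.5 and the mouse build mm10. How reads were counted, on which annotation and whether by strand, is not given in the sources used here. As for values, the authors deposited raw counts per gene without normalization. The table held 26178 entries, and 4142 unnamed loci, with 1.02% to 6.01% of a library's counts, entered neither library sizes nor tests, which left 22036 genes.

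The test was that of edgeR 4.0.16 in R 4.3.3, with filterByExpr by group, TMM factors and a quasi-likelihood fit with 1 coefficient per group over all 9 libraries. Adjusted p-values are from this test with Benjamini-Hochberg adjustment over 14160 genes at 0.05. Fold changes are log2, their standard error (SE) was taken from the F statistic, and CPM were computed here. Levels per kilobase used exon lengths of GENCODE M21, which matched 22022 genes. The exons of all transcripts of a gene were joined for its length. The pipeline was run on simulated data with known fold changes. That simulation held neither the shift in composition between groups nor the wider spread of HFD AAV-CON, so it did not test the pipeline under them. Alternatives included DESeq2 1.42.0, limma-voom (limma 3.58.1), other scalings and filters, a replicate block and leaving out each library.

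The members and lists were chosen with earlier results of these data known. The genes named are the members, Edn2, Ece2, Ren1, Agtr1b, Agtr2, Mas1 and Cma1, up to 4 called genes with the smallest p per list and comparison, and the 2 genes most like each member over the libraries. A few of these are not reported here. Other genes named were chosen after their values were seen.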

Additional observations from a re-analysis of the deposited data

How the results depend on the processing

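The calls of Edn3 in all 3 comparisons, of Ace in the diet comparison and in the vector comparison, and of Agtr1a in the diet comparison held under all 19 alternatives. The alternatives draw on the same libraries, and the genes were chosen with these values known. This is therefore a description of how the calls depend on settings, not further evidence for them. Under the alternatives, 441 member fold changes moved by less than the spread between replicates and 15 by more. Leaving out each library in turn gave 4050 to 7325, 2847 to 6978 and 43 to 744 calls over all genes in the diet, vector and combined comparison, with the lowest of the first and second without HFD AAV-CON replicate 3. For the 8 members it gave 3 to 5, 2 to 5 and 1 to 2 calls, and for other pathway genes 41 to 61, 30 to 60 and 1 to 15. Without HFD AAV-CON replicate 2, Ednra and Ednrb were also called lower in the diet comparison, and Agt and Agtr1a also higher in the vector comparison. In the diet comparison Ednra was called lower without ND AAV-CON replicate 2 as well, and Ednrb without HFD AAV-BCKDK replicate 1. The other counts that moved, beside those without a library, were all in the combined comparison. All genes called were 136 with total-count scaling, 902 with DESeq2, 873 with only the 2 groups compared and 107 with the replicate block, beside 347. Other pathway genes called were 2, 14, 14 and 2, beside 9. With the replicate block 1 member was called in place of 2, Agtr1a being lost. The block also lost Furin in the diet comparison (adjusted p = 0.0557), and Nr3c2 (0.0692), Rgs2 (0.0569), Grk5 (0.0837), Arhgef12 (0.121), Rcan1 (0.0596), Il6 (0.125) and Vegfa (0.1) in the combined comparison. The cause of these shifts was not tested. Deviations of same-numbered libraries correlated between -0.22 and 0.192. With 3 libraries per group such values cannot show whether same-numbered libraries share a batch or pairing, so this was not settled. With total-count scaling 4 and 6 pathway calls of the diet and vector comparison changed sign, Ece1 was called lower in the vector comparison (-0.34), and the split of all genes was 5986 higher and 934 lower in the diet comparison (3215 and 2919 with TMM) and 398 higher and 6867 lower in the vector comparison (2444 and 2966). Depth limits Agt, Mas1, Ece2, Cma1 and Bdkrb2, which had under 300 counts in each library. Edn3 had 64 to 78 counts in ND AAV-CON, the reference of its diet and combined comparisons, below the 97 to 119 of Agt there.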
